A study of Mus musculus with 6 samples.

Results

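The genes described here encode the enzymes and close regulators of glucose handling in liver: gluconeogenesis, glycolysis, the pyruvate dehydrogenase step, the pentose phosphate pathway and glycogen metabolism. They were taken from a fixed list of gene symbols, with the catalytic subunit of glucose-6-phosphatase under its symbol in the table, G6pc. The rule that picks them uses no measured value, but the list was drawn up with earlier results of these data known. The list holds 39 genes of the 35540 symbols in the table, and all 39 reached the minimum mean of 0.1 TPM that 14189 genes met and that was required for testing.

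RNA was sequenced from 6 livers, 3 of Surf4 fl/fl Alb-Cre+ genotype and 3 of littermates with the Surf4 fl/fl Alb-Cre- genotype as controls. Both genotypes carry 2 copies of a Surf4 allele with loxP sites around exon 2, and the Alb-Cre+ mice also carry Cre recombinase under the albumin promoter, which is active in hepatocytes, so other liver cells keep the unrecombined allele, and no group here carries Cre without the loxP sites. Both alleles were kept on a C57BL/6J background. SURF4 is a receptor in the endoplasmic reticulum that carries secreted proteins towards the Golgi. In each genotype mice 1 and 3 were male and mouse 2 was female, the study's mice were fasted overnight before samples were taken, and the ages of these 6 mice are not given in the sources used here. The design asks which liver transcripts differ when hepatocytes lack SURF4, and here how the glucose pathway genes compare between the genotypes.

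Surf4 itself stood at 92.5, 94.5 and 92.5 TPM in the 3 Alb-Cre- mice and 59.01, 71.8 and 54.3 TPM in the 3 Alb-Cre+ mice (mice 1, 2 and 3 in this order here and throughout), and every Alb-Cre+ value was below every Alb-Cre- value (two-sided exact permutation p = 0.1, the smallest that 3 against 3 can give). This total also counts Surf4 transcripts that lack exon 2. TPM are relative transcript abundances, corrected for transcript length and scaled to a sum of 1000000 per mouse, so levels can be compared between genes, and the table holds no read numbers. Between 10059 and 11125 genes per mouse reached 1 TPM, and the 8 hepatocyte marker genes summed to 83890, 89110 and 75340 TPM in Alb-Cre- and 78160, 74280 and 59020 TPM in Alb-Cre+ mice. This sum was lower in Alb-Cre+ in each pair, with a median log2 difference of -0.13 over the 8 genes, and 2 of them (Ttr and Apoa1) were lower without overlap between the genotypes, beside 2.71% of all genes. The part of this in the members' values was not tested. With limma on log2(TPM + 0.1) and genotype as the only factor, 0 genes passed an adjusted p of 0.01 and 250 (1.76% of the genes tested) had an unadjusted p below 0.05. Surf4 had a log2 difference of -0.60 in this fit, with an unadjusted p of 0.00269 and an adjusted p of 0.9999. So even the targeted gene did not pass. The authors' own DESeq2 comparison, a different test, did call genes at a false discovery rate below 0.01. Mice with the same number deviated together from their group means in these data. Results are therefore also given from a fit with replicate number as a block, which compares the genotypes within each number. The labels state no pairing by number, so a pair here means only 2 mice with the same number. Since mouse 2 was the female in each genotype, number and sex go together there. With the block 0 genes passed the adjusted threshold while 666 (4.69%) had an unadjusted p below 0.05. No pathway gene named below passed the adjusted threshold in either fit, the lowest adjusted p of the 39 genes being 0.9999 from genotype alone and 0.195 with the block, so all genotype differences below are given as sizes with their errors.

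The liver keeps blood glucose steady. After a meal it traps glucose as glucose 6-phosphate, stores it as glycogen and burns it through glycolysis to pyruvate, which pyruvate dehydrogenase commits to acetyl-CoA. In a fast, glycogen phosphorylase releases the stored sugar and gluconeogenesis rebuilds glucose from lactate, alanine and glycerol. Both routes end in the endoplasmic reticulum, where the transporter encoded by Slc37a4 brings in glucose 6-phosphate and the phosphatase G6pc frees the glucose.

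The promoters of 4 members are shown because these are the genes whose values did not overlap between the genotypes (Pdk1, Gbe1 and Ppp1r3c) and the one with the lowest p in the blocked fit (Ldha). They are RefSeq sequences on GRCm38.p6, each read 5′ to 3′ towards the gene from 250 bases before its start, and capitals mark the letters of 5 motifs found on either strand. These are the E-box, which is bound by factors such as ChREBP and MYC and was searched as CACGTG, and the hypoxia response core, the short element that HIF proteins recognise, which was searched as ACGTG. The cAMP response element, the site of CREB in fasting, was searched as TGACGTCA. The FOXO-type site, named after the forkhead factors that insulin restrains, was searched as TGTTTAC, and the TATA box, which positions the start of transcription in many strongly regulated genes, was searched as TATAAA. The windows are chr7:46845554-46845803 on the + strand for Ldha, inside the annotated span of the gene and before the start of its leading transcript, chr2:71872974-71873223 on the + strand for Pdk1, chr16:70313699-70313948 on the + strand for Gbe1 and chr19:36736654-36736854 on the - strand for Ppp1r3c, where the last 49 bases were left out because they lie in an annotated exon.
Ldha: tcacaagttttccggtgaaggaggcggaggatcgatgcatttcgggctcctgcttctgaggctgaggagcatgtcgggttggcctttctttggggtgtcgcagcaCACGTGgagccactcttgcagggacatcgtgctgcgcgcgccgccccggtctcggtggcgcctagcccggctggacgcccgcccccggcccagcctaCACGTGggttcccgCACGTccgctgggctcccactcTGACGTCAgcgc
Pdk1: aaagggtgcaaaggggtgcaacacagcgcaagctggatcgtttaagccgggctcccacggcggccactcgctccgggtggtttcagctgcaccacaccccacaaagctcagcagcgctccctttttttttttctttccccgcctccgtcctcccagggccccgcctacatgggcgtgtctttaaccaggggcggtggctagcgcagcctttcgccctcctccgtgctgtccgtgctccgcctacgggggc
Gbe1: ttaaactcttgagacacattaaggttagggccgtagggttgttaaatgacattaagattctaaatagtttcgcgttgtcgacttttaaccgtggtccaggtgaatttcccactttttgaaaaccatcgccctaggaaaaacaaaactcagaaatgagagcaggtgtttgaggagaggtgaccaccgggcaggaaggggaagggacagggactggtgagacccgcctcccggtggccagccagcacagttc
Ppp1r3c: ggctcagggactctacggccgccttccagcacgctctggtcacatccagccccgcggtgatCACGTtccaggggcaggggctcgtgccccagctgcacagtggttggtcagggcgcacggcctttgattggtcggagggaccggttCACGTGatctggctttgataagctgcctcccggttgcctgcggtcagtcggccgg

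The Ldha window held 2 E-boxes, 145 and 48 bases before the start, a further hypoxia response core at 34 and a cAMP response element at 12, while the Ppp1r3c window held an E-box 104 bases and a hypoxia response core 189 bases before its start. None of these letters was found in the Pdk1 or Gbe1 window. A match gives the letters only, and no binding was measured. Only the exact letters were searched, so variants of a site, such as ttacgtca in the Pck1 window, were not counted. An E-box always contains the hypoxia response core, so these counts overlap. Among the 37 members matched by symbol in the promoter table (all but Gys2 and Ppp1r3b), 6 windows held an E-box (16.2%, against 6.02% of all 32851 promoters), 14 the hypoxia response core (37.8% against 16.6%), 1 the cAMP response element (2.7% against 1.55%), 2 the TATA box (5.41% against 12.4%) and 0 the FOXO-type site (3.17% of all promoters). Each member gave 1 window, at the RefSeq start nearest its leading transcript, while the background counted every listed start of every gene, whatever its level. The 2 shares are therefore not like for like, and whether they differ was not tested. The TATA boxes lay 29 bases before the RefSeq start of G6pc and 32 bases before that of Slc37a4, and both of these starts lie inside the annotated span of the gene, 155 and 178 bases after the start of its leading transcript here. The E-boxes and hypoxia cores stood before genes with higher, lower and equal values in Alb-Cre+ mice alike: Ldha and Ppp1r3c were lower, Pfkfb3 was higher, and Pcx, Pfkfb2 and Pdk2 had log2 differences of 0.051, 0.078 and 0.

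Across the list, 26 genes were higher and 13 lower in Alb-Cre+ liver, and the median log2 difference was 0.058, beside -0.0017 over all genes tested. The differences ran from -1.01 for Ppp1r3c to 0.91 for Pfkfb3, and 29 of the 39 lay within 0.25 of 0 on the log2 scale. From genotype alone 3 members had an unadjusted p below 0.05 (7.69%), all of them higher: Gbe1, Pdk1 and Pfkfb3, where 0.803% of all genes tested were higher and 0.958% lower at this threshold. With the replicate block 8 members did (20.5%), with 6 higher (Slc37a4, Pfkfb3, Pdk1, Tkt, Pygl and Gbe1, background 2.28%) and 2 lower (Ldha and Ppp1r3c, background 2.42%). Between the genotypes 3 members did not overlap, namely Pdk1 and Gbe1, which were higher (2.18% of all genes), and Ppp1r3c, which was lower (2.71%). In all 3 same-numbered pairs 10 members were higher and 4 lower, against 11.5% and 12.4% of all genes. After median-of-ratios scaling, which sets the mice level by their median gene and was applied to the pairs after seeing the data, these counts were 11 and 3, beside 13% and 13.8% of all genes, and 8 and 2 of the members were the same.

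**Figure D1:**
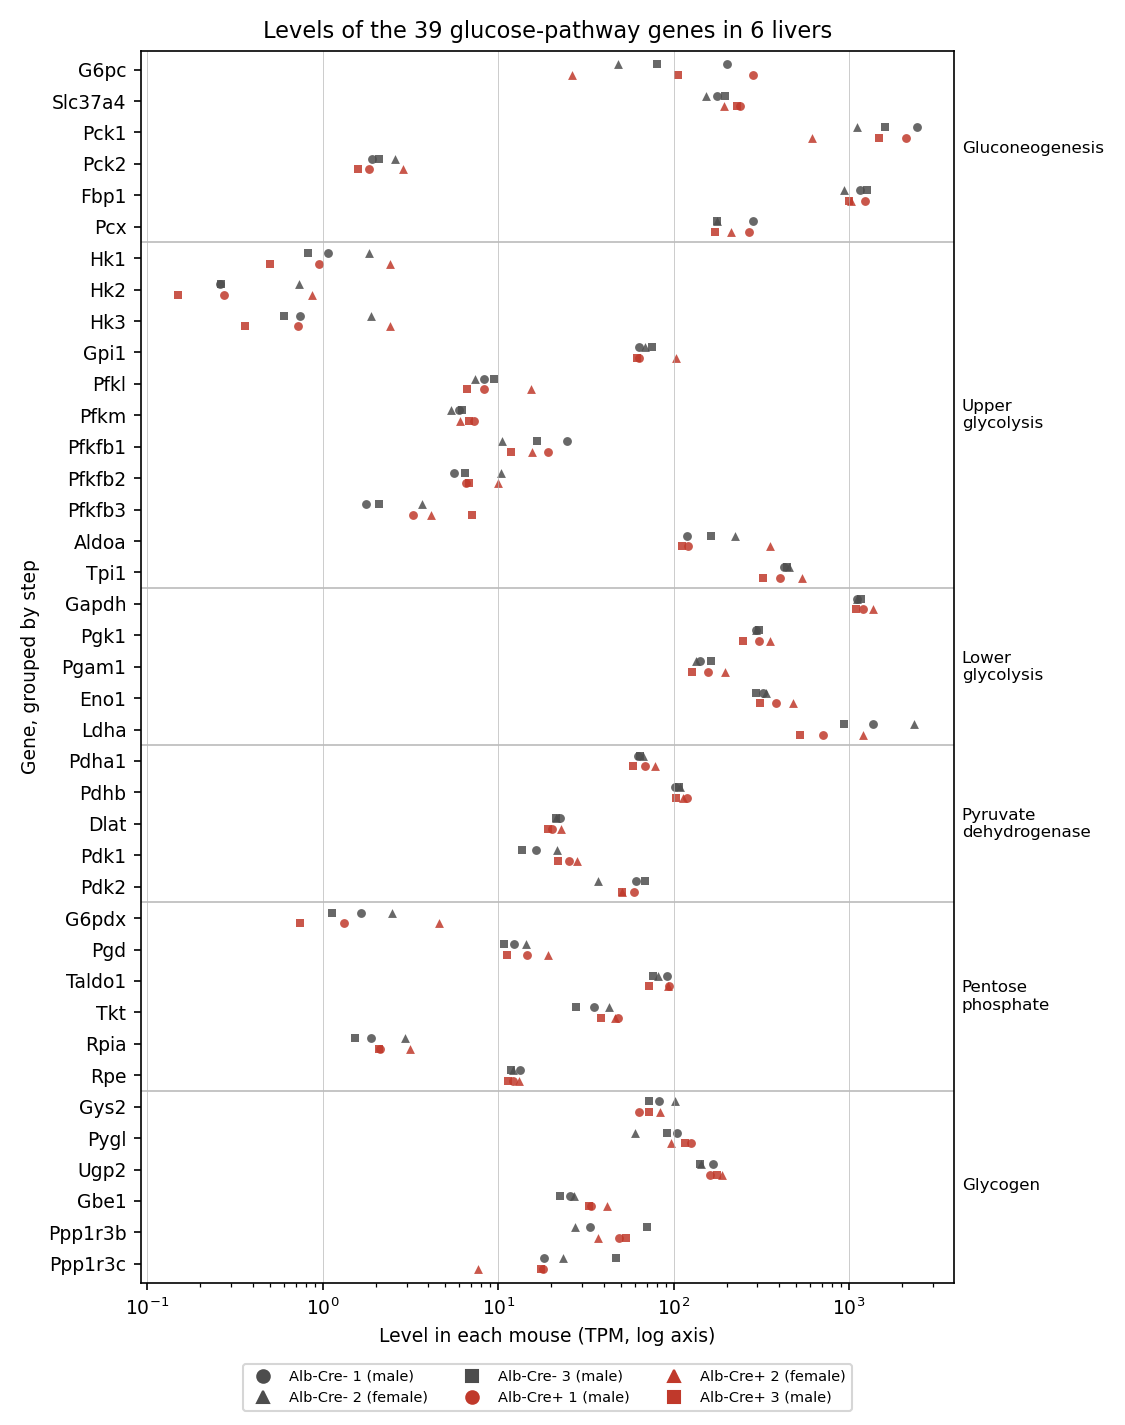
Level of each of the 39 genes in each mouse (TPM, log axis), grouped by step, with Alb-Cre- mice in grey, Alb-Cre+ mice in red and the females as triangles. The levels reach from 0.149 TPM for Hk2 in Alb-Cre+ mouse 3 to 2424 TPM for Pck1 in Alb-Cre- mouse 1, and the genotypes overlap for all but Pdk1, Gbe1 and Ppp1r3c.

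Levels differed far more between genes than between genotypes. Averaged over the 6 mice, Pck1 was the highest at 1555 TPM, followed by Ldha at 1177, Gapdh at 1175 and Fbp1 at 1100 TPM. The order of these 4 genes is within the spread between mice. Pck1 was below Gapdh, Ldha and Fbp1 in Alb-Cre+ mouse 2 and below Ldha in Alb-Cre- mouse 2, and Ldha ranged from 525 to 2336 TPM. In all, 14 members averaged 100 TPM or more and 7 averaged below 5 TPM: Pck2, Hk1, Hk2, Hk3, Pfkfb3, G6pdx and Rpia. No member was at 0 in any mouse. The hexokinases encoded by Hk1, Hk2 and Hk3, which serve most other tissues, averaged 1.27, 0.424 and 1.12 TPM.

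Of the 6 gluconeogenic genes, 3 were higher and 3 lower in Alb-Cre+ liver, and Slc37a4 alone had an unadjusted p below 0.05, in the blocked fit. Slc37a4, the glucose 6-phosphate transporter (chr9:44396852-44402968, GRCm38), stood at 177, 153 and 197 TPM in Alb-Cre- livers and 239, 194 and 231 TPM in Alb-Cre+ livers. Each Alb-Cre+ mouse was above the Alb-Cre- mouse of the same number, but Alb-Cre+ mouse 2 lay below Alb-Cre- mouse 3, so the groups overlapped. The log2 difference was 0.33 (SE 0.15, or 0.093 with the block), with an unadjusted p of 0.0559 from genotype alone and 0.0137 with the replicate block, where the adjusted p was 0.817. G6pc, its partner phosphatase, was measured at 201, 48.04 and 79.9 TPM in controls and 283, 26.3 and 106.5 TPM in Alb-Cre+ mice. It varied 10.7-fold between the 6 mice, more than any other member, and its pairs went in opposite directions, higher in Alb-Cre+ in both male pairs (log2 differences 0.49 and 0.41) and lower in the female pair (-0.87). Its mean log2 difference of 0.012 had a 95% interval of -2.06 to 2.09, or -0.70 to 0.72 with the block, so a change of 1 log2 unit either way lay inside the first.

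Pck1, the cytosolic phosphoenolpyruvate carboxykinase that commits carbon to gluconeogenesis, stood at 2424, 1110 and 1605 TPM without Cre and 2100, 613 and 1479 TPM with Cre. It was lower in Alb-Cre+ mice in all 3 pairs, by log2 differences of -0.21, -0.86 and -0.12, although the genotypes overlapped. After median-of-ratios scaling pair 3 stood at 0.024, so the pairs no longer shared a direction. The mean log2 difference was -0.39 (SE 0.48, or 0.17 with the block), with an unadjusted p of 0.442 from genotype alone and 0.0666 with the replicate block, where the adjusted p was 0.999. Without Alb-Cre+ mouse 2 it was 0.11, in the opposite direction. The mitochondrial form Pck2 averaged 2.13 TPM, and its log2 difference was -0.094 (95% interval -0.78 to 0.59, or -0.58 to 0.40 with the block). Fbp1, the fructose bisphosphatase that opposes phosphofructokinase, had values of 1150, 938 and 1261 TPM in the 3 Alb-Cre- mice and 1228, 1027 and 997 TPM in the 3 Alb-Cre+ mice. Pcx, the pyruvate carboxylase that starts the route, read 284, 176 and 177 TPM in Alb-Cre- livers and 268, 213 and 172 TPM in Alb-Cre+ livers. Neither gene separated the genotypes, with log2 differences of -0.037 (95% interval -0.37 to 0.29 with the block) and 0.051 (-0.23 to 0.33).

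A list of 8 genes known to be induced by fasting (Igfbp1, Pdk4, Ppargc1a, Tat, Irs2, Fgf21, Angptl4 and Cpt1a) is given beside these values. Their levels summed to 2952, 2617 and 2908 TPM in the Alb-Cre- mice and 2855, 1658 and 2084 TPM in the Alb-Cre+ mice, lower in Alb-Cre+ in each pair. Such a sum is carried by its most abundant genes and does not speak for all 8 alike. Their median log2 difference was -0.50, 5 were lower and 3 higher. At an unadjusted p below 0.05 there was 1 of the 8 from genotype alone, beside 1.76% of all genes, and 4 with the block, beside 4.69%, of which Igfbp1, Fgf21 and Cpt1a were lower and Angptl4 was higher. Pdk4 and Irs2 had positive log2 differences of 0.73 and 0.32, with unadjusted p of 0.117 and 0.101 with the block, and Irs2 was higher in each pair. Cpt1a, which admits fatty acids to mitochondria, was the only one of the 8 without overlap between the genotypes, at 273, 269.6 and 187 TPM in controls and 158, 179 and 130.3 TPM in Alb-Cre+ mice, with a log2 difference of -0.64. For Cpt1a limma gave an unadjusted p of 0.0139 from genotype alone and 0.00103 with the replicate block, where the adjusted p was 0.431. The levels of 10 clock genes summed to 112 to 146 TPM in Alb-Cre- and 106.5 to 118 TPM in Alb-Cre+ mice, and 8 of the 10 were lower and 2 higher in Alb-Cre+. Clock was lower without overlap between the genotypes, beside 2.71% of all genes. Arntl was lower at an unadjusted p below 0.05 with the block, beside 2.42%, and 0 of the 10 had such a p from genotype alone. The part of feeding state and time of day in the differences of G6pc, Pck1 and the other members was not tested.

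Upper glycolysis showed no shared direction, with 6 of its 11 genes higher and 5 lower in Alb-Cre+ liver and a median log2 difference of 0.051. Pfkfb3, one of the enzymes that make fructose 2,6-bisphosphate, the activator of phosphofructokinase, was the member with the largest positive difference (chr2:11471433-11554077). Its values were 1.76, 3.68 and 2.10 TPM without Cre and 3.28, 4.12 and 7.11 TPM with Cre, higher in Alb-Cre+ in each pair by log2 differences of 0.86, 0.16 and 1.71. Alb-Cre+ mouse 3 stood alone at the top, while Alb-Cre- mouse 2 was above Alb-Cre+ mouse 1. The log2 difference of 0.91 (SE 0.38) came with an unadjusted p of 0.0490 from genotype alone and 0.0310 with the replicate block, where the adjusted p was 0.999, and without Alb-Cre+ mouse 3 it was 0.60. After median-of-ratios scaling pair 2 stood at 0.002 and the unadjusted p from genotype alone at 0.0616. That p was also not below 0.05 with a pseudocount of 1 TPM, with no minimum or with no trend. The paralogues Pfkfb1, the main liver form, and Pfkfb2 had log2 differences of -0.094 and 0.078, each with an interval across 0.

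Pfkl, the liver phosphofructokinase, stood at 8.33, 7.41 and 9.47 TPM in the 3 Alb-Cre- mice and 8.33, 15.3 and 6.64 TPM in the 3 Alb-Cre+ mice. The female Alb-Cre+ mouse was the highest of the 6, and the log2 difference of 0.18 had a 95% interval of -0.55 to 0.91, or -0.58 to 0.93 with the block. The same mouse was the highest of the 6 for Gpi1, the glucose phosphate isomerase (104 TPM against 61.9 to 74.99 TPM in the others), for the aldolase Aldoa (355.5 against 112 to 222.5 TPM) and for the triose phosphate isomerase Tpi1 (536 against 321 to 451 TPM). Pfkm, the muscle form of phosphofructokinase, was higher in Alb-Cre+ in all 3 pairs by 0.26, 0.17 and 0.13 on the log2 scale, with an unadjusted p of 0.212 with the block.

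In lower glycolysis, Ldha was the exception to 4 genes with small positive differences. Ldha, the lactate dehydrogenase subunit that interconverts pyruvate and lactate (chr7:46841475-46855627), stood at 1361, 2336 and 935 TPM in Alb-Cre- livers and 708, 1198 and 525 TPM in Alb-Cre+ livers. Each Alb-Cre+ mouse held 0.520, 0.513 and 0.561 times the level of the Alb-Cre- mouse of the same number, so the 3 pairs gave nearly the same ratio although the levels within the Alb-Cre- group ran from 935 to 2336 TPM. The genotypes overlapped, since the female Alb-Cre+ mouse was above Alb-Cre- mouse 3. The log2 difference was -0.91 (SE 0.41, or 0.097 with the block), with an unadjusted p of 0.0595 from genotype alone and 0.000149 with the replicate block, where the adjusted p was 0.195. This was the lowest p of the 39 genes in the blocked fit. Without the female Alb-Cre- mouse the log2 difference was -0.56. One protein-coding transcript, Ldha-202, carried 98.8% to 99.5% of the Ldha TPM in every mouse, and 19.6% of the 31-base stretches of Ldha transcripts also occur in other genes, so a part of its reads could be shared.

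The other 4 genes of lower glycolysis form the common trunk from glyceraldehyde 3-phosphate to phosphoenolpyruvate. Gapdh stood at 1111, 1107 and 1162 TPM in controls and 1203, 1369 and 1096 TPM in Alb-Cre+ mice, and Eno1, the enolase, at 321, 334.5 and 294 TPM without Cre and 384, 481 and 309 TPM with Cre. Eno1 was higher in Alb-Cre+ in each pair by 0.26, 0.52 and 0.072 on the log2 scale, with an unadjusted p of 0.152 from genotype alone and 0.0564 with the replicate block, where the adjusted p was 0.999. Pgk1 and Pgam1 had log2 differences of 0.006 (95% interval -0.35 to 0.36, or -0.33 to 0.34 with the block) and 0.12 (-0.30 to 0.53, or -0.34 to 0.57 with the block), higher in pairs 1 and 2 and lower in pair 3. Of their 31-base stretches, 54.7% for Pgk1, 37.1% for Pgam1, 28.5% for Eno1 and 28.1% for Gapdh also occur in other annotated genes, among them processed copies, which leaves these levels uncertain.

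**Figure D2:**
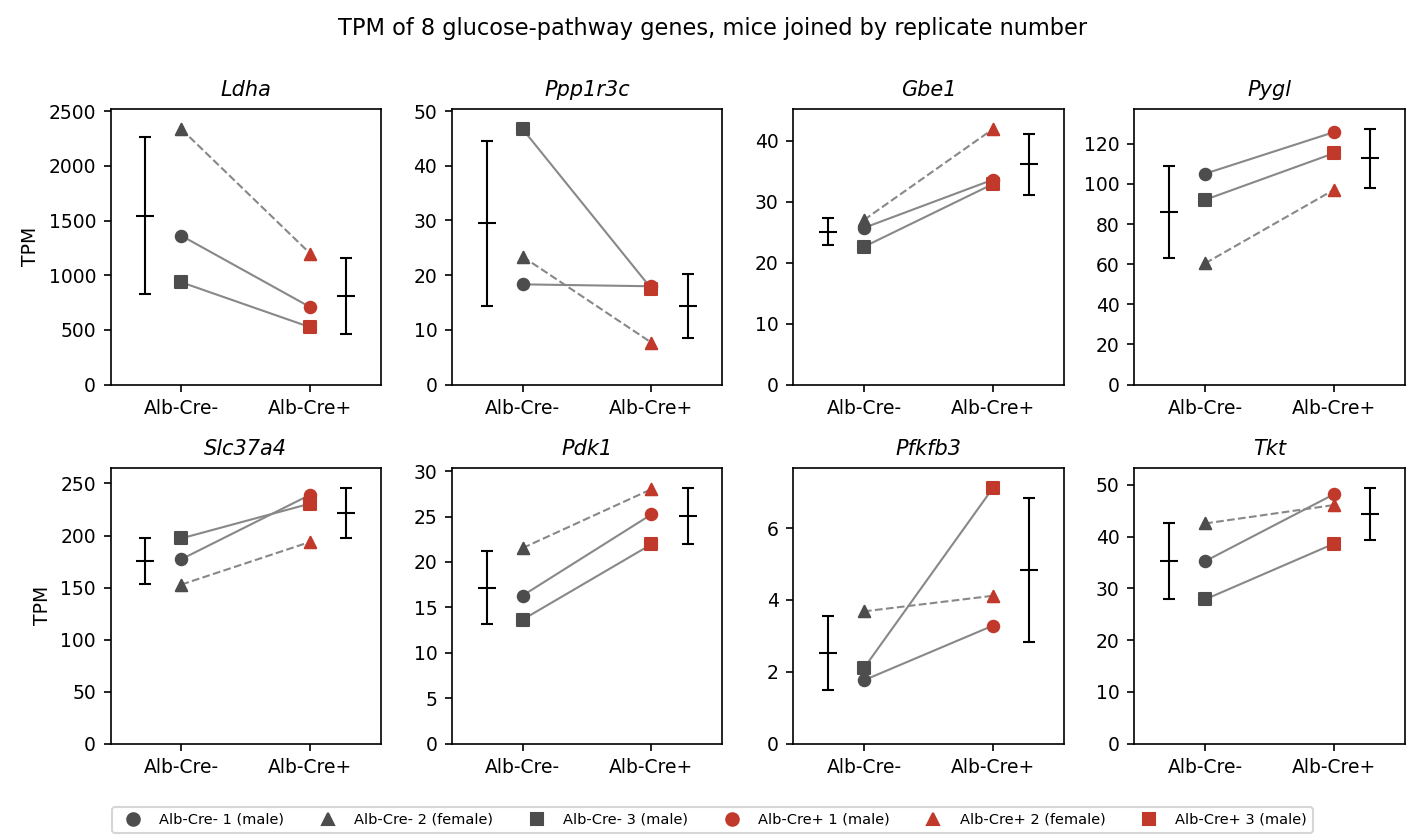
TPM of the 8 members with an unadjusted p below 0.05 in the blocked fit, in Alb-Cre- (grey) and Alb-Cre+ (red) mice, with same-numbered mice joined, the female pair dashed, and bars for the mean and SD of each genotype (n = 3). On this linear scale all 3 lines fall for Ldha and Ppp1r3c, by next to nothing in pair 1 of Ppp1r3c, and all 3 rise for the other 6 genes.

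At the pyruvate dehydrogenase step the subunit genes of the complex differed less between the genotypes than one of its kinases. Pdk1, a kinase that switches the complex off by phosphorylation (chr2:71873224-71903858), stood at 16.3, 21.5 and 13.7 TPM in the 3 Alb-Cre- mice and 25.2, 28.02 and 21.9 TPM in the 3 Alb-Cre+ mice. All Alb-Cre+ values were above all Alb-Cre- values, the closest being 21.9 and 21.5 TPM, and the pair differences were 0.63, 0.38 and 0.68 on the log2 scale. The mean log2 difference of 0.56 (SE 0.20, or 0.12 with the block) came with an unadjusted p of 0.0247 from genotype alone and 0.00376 with the replicate block, where the adjusted p was 0.555. Of the Pdk1 TPM, 33.7% was assigned to Pdk1-208, a transcript annotated as non-coding, at 4.61, 8.42 and 4.51 TPM in the Alb-Cre- mice and 7.02, 10.2 and 7.88 TPM in the Alb-Cre+ mice, while the coding Pdk1-201 stood at 10.6, 9.89 and 7.89 TPM in the Alb-Cre- mice and 14.9, 12.1 and 11.9 TPM in the Alb-Cre+ mice. Both transcripts were higher in each Alb-Cre+ mouse than in the Alb-Cre- mouse of the same number. Pdk2, the kinase of similar function that was more abundant here, had a log2 difference of 0 (95% interval -0.55 to 0.55, or -0.45 to 0.45 with the block).

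The subunit genes Pdha1, Pdhb and Dlat varied little between mice. Over the 6 mice they ranged from 58.8 to 77.8, from 101 to 119 and from 19.3 to 22.8 TPM. Their log2 differences were 0.076, 0.088 and -0.066, with 95% intervals of -0.24 to 0.39, -0.17 to 0.35 and -0.36 to 0.23 from genotype alone and -0.20 to 0.35, -0.16 to 0.34 and -0.34 to 0.21 with the block.

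The pentose phosphate pathway, which supplies NADPH and ribose, had 5 of its 6 genes higher in Alb-Cre+ liver, with a median log2 difference of 0.14. Tkt, the transketolase that links the pathway back to glycolysis (chr14:30548359-30574720), stood at 35.2, 42.5 and 27.9 TPM in Alb-Cre- livers and 48.2, 46.1 and 38.6 TPM in Alb-Cre+ livers. Each Alb-Cre+ mouse was above its same-numbered Alb-Cre- mouse, by 0.45, 0.12 and 0.47 on the log2 scale, with overlap between the genotypes. After median-of-ratios scaling pair 2 stood at -0.042 and the unadjusted p with the block at 0.0667. The log2 difference was 0.34 (SE 0.18), with an unadjusted p of 0.101 from genotype alone and 0.0278 with the replicate block, where the adjusted p was 0.966. Without Alb-Cre- mouse 3 the log2 difference was 0.19. Of the Tkt TPM, 64.8% to 76.0% in each mouse was assigned to Tkt-209, a transcript annotated as non-coding, at 24.6, 27.5 and 21.2 TPM in the Alb-Cre- mice and 34.9, 31.5 and 28.4 TPM in the Alb-Cre+ mice, and the coding Tkt-201 stood at 8.76, 9.12 and 6.44 TPM in the Alb-Cre- mice and 12.5, 10.3 and 9.39 TPM in the Alb-Cre+ mice, so the level of coding Tkt RNA is lower than the gene total. Pgd and Rpia, which act before and beside it, were also higher in each pair, with unadjusted p of 0.119 and 0.253 with the block, although Rpia stood at -0.055 in pair 2 after median-of-ratios scaling.

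G6pdx, the glucose 6-phosphate dehydrogenase that opens the pathway, read 1.65, 2.46 and 1.13 TPM in controls and 1.32, 4.59 and 0.737 TPM in Alb-Cre+ mice. It was low in every mouse, and the 2 females held the highest values. In the female pair Alb-Cre+ was higher (log2 difference 0.87) and in both male pairs lower (-0.30 and -0.56), which left a mean of 0.005 (95% interval -1.50 to 1.51, or -0.81 to 0.82 with the block). In the female Alb-Cre+ mouse 1.54 TPM was assigned to the non-coding G6pdx-202, which was at 0 in all other mice, and 23.6% of the 31-base stretches of G6pdx are shared with other genes, among them its overlapping neighbour Ikbkg. Taldo1 and Rpe, which rearrange sugars in the non-oxidative arm, differed by 0.058 and -0.032.

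In the blocked fit the glycogen genes held the largest share of members with an unadjusted p below 0.05, 3 of 6, beside 4.69% of all genes. Of these 3, 2 were higher and 1 was lower. From genotype alone it was 1 of the 6 (16.7%), beside 1.76% of all genes. That is a smaller share than the 1 of 5 at the pyruvate dehydrogenase step (20%). Gbe1, the branching enzyme that adds the side chains of glycogen (chr16:70313949-70569716), stood at 25.7, 27.01 and 22.6 TPM without Cre and 33.6, 41.9 and 32.9 TPM with Cre. All Alb-Cre+ mice were above all Alb-Cre- mice, with 32.9 TPM as the lowest Alb-Cre+ and 27.01 TPM as the highest Alb-Cre- value, and the pairs differed by 0.39, 0.63 and 0.54 on the log2 scale. The mean log2 difference was 0.52 (SE 0.15, or 0.10 with the block), with an unadjusted p of 0.00953 from genotype alone and 0.00345 with the replicate block, where the adjusted p was 0.555. It was the only member with an unadjusted p below 0.05 in every alternative tried, each mouse left out in turn included. One coding transcript, Gbe1-203, carried 93.7% to 97.2% of its TPM, and none of its 31-base stretches occurs in another gene.

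Pygl, the liver glycogen phosphorylase that releases glucose 1-phosphate (chr12:70190811-70231488), stood at 105, 60.4 and 92.1 TPM in the 3 Alb-Cre- mice and 126, 97.1 and 115 TPM in the 3 Alb-Cre+ mice. It was higher in Alb-Cre+ in each pair by 0.26, 0.68 and 0.32 on the log2 scale, although the female Alb-Cre+ mouse lay below Alb-Cre- mouse 1. The log2 difference of 0.42 (SE 0.22, or 0.12 with the block) came with an unadjusted p of 0.0981 from genotype alone and 0.0139 with the replicate block, where the adjusted p was 0.817, and it was 0.19 without the female Alb-Cre- mouse. Gys2, the liver glycogen synthase that opposes it, read 82.9, 102 and 72.4 TPM in Alb-Cre- livers and 63.03, 83.5 and 72.4 TPM in Alb-Cre+ livers. Its pair differences of -0.39, -0.29 and 0 gave a mean of -0.23 (95% interval -0.51 to 0.056 with the block), with an unadjusted p of 0.223 from genotype alone and 0.0949 with the replicate block, where the adjusted p was 0.999. Gys2 is counted above as lower in all 3 pairs, but pair 3 was all but equal, at 72.39 TPM in Alb-Cre- and 72.38 TPM in Alb-Cre+. After median-of-ratios scaling that pair stood at 0.14. Ugp2, which makes the UDP-glucose that the synthase uses, had a log2 difference of 0.22 (95% interval -0.069 to 0.51, or -0.075 to 0.52 with the block).

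Ppp1r3c, a subunit that brings protein phosphatase 1 to glycogen and so favours its synthesis (chr19:36731731-36736653), had the largest negative difference of the list. Its values were 18.3, 23.4 and 46.7 TPM in controls and 17.97, 7.66 and 17.5 TPM in Alb-Cre+ mice. The genotypes did not overlap, but by a margin of 17.97 against 18.3 TPM in pair 1, where the log2 difference was -0.027, beside -1.60 and -1.41 in pairs 2 and 3. The mean log2 difference of -1.01 (SE 0.44, or 0.32 with the block) came with an unadjusted p of 0.0556 from genotype alone and 0.0222 with the replicate block, where the adjusted p was 0.925. Without Alb-Cre+ mouse 2 it was -0.61. Ppp1r3b, the related subunit that is more abundant in liver, stood at 33.4, 27.6 and 70.2 TPM without Cre and 48.9, 37.1 and 53.3 TPM with Cre, higher in Alb-Cre+ in pairs 1 and 2 and lower in pair 3, with a mean of 0.19 (95% interval -0.62 to 1.01, or -0.32 to 0.70 with the block).

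**Figure D3:**
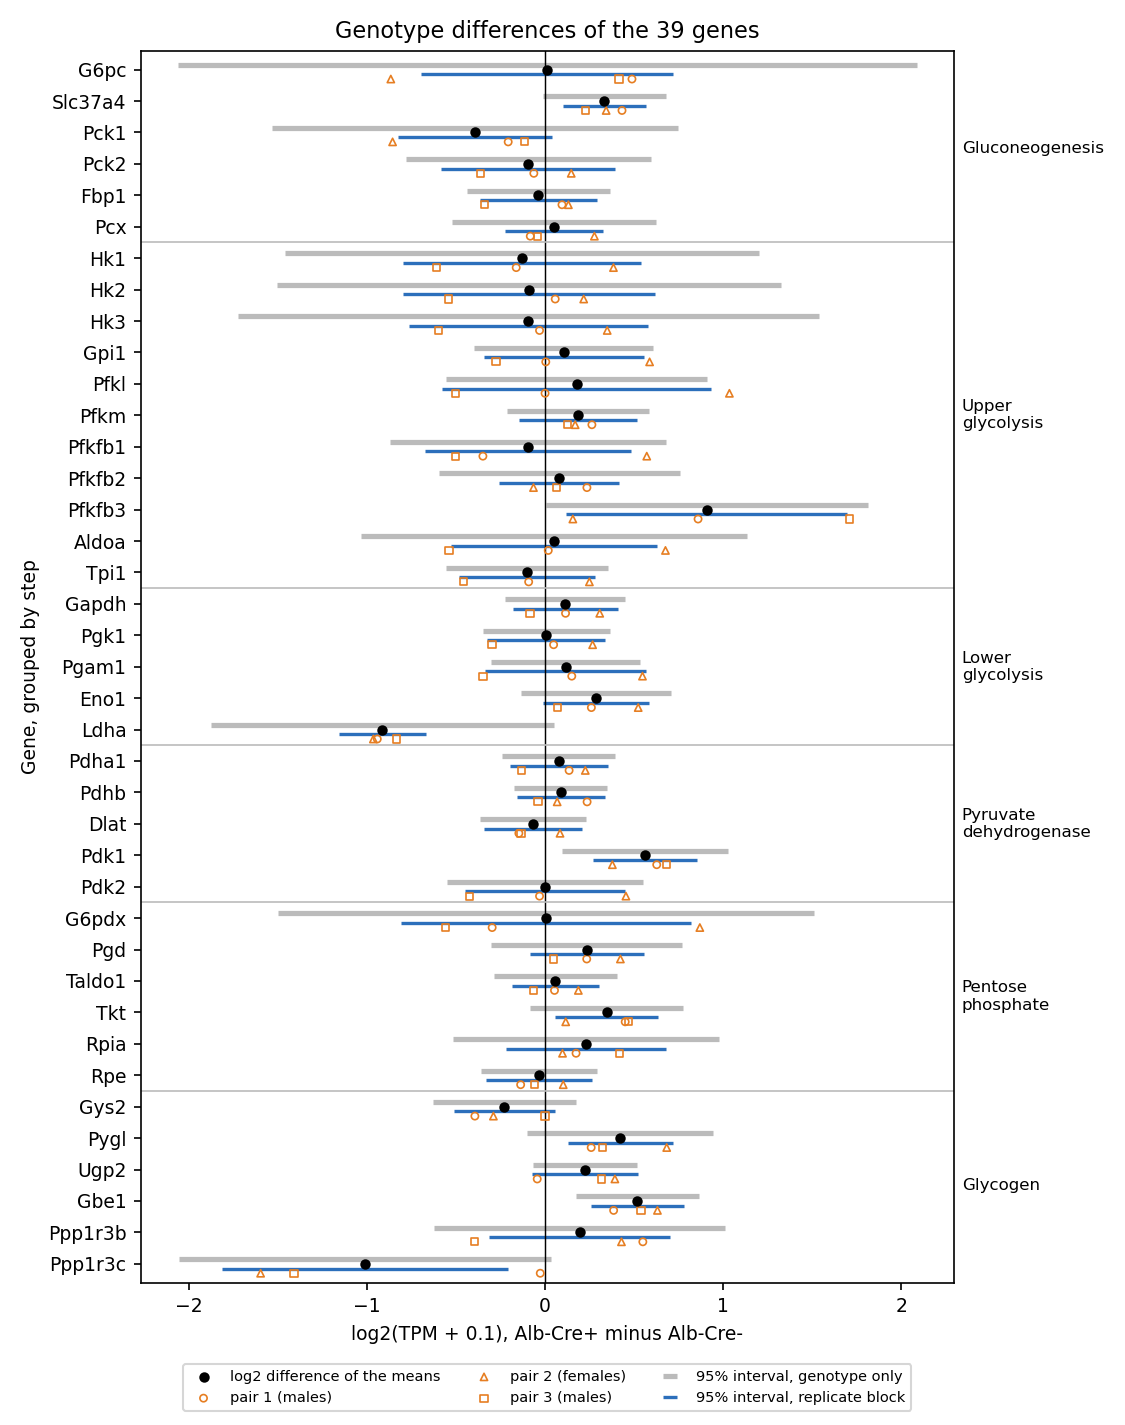
Difference between the genotypes in log2(TPM + 0.1) for each of the 39 genes (black points), with the 95% intervals from genotype alone (grey) and with the replicate block (blue) and the 3 same-numbered pairs (orange, triangles for the females). The blue interval lies clear of 0 for 8 genes and the pairs of Ldha sit between -0.96 and -0.83, while for G6pc, Pfkl and G6pdx the female pair stands apart from the male pairs.

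Of 98 further genes of these pathways, 91 were tested. From genotype alone 2 were higher and 2 lower at an unadjusted p below 0.05, where 0.803% and 0.958% of all genes were. With the block 6 were higher and 4 lower, beside 2.28% and 2.42%, and 3 higher and 3 lower genes did not overlap between the genotypes, beside 2.18% and 2.71%. Pklr, the pyruvate kinase of liver, which completes glycolysis, stood at 45.5, 36.2 and 23.7 TPM in the 3 Alb-Cre- mice and 67.8, 79.8 and 59.3 TPM in the 3 Alb-Cre+ mice, with no overlap between the genotypes. Its log2 difference was 1.01 (SE 0.25), with an unadjusted p of 0.00460 from genotype alone and 0.00124 with the replicate block, where the adjusted p was 0.431. Slc2a2, the glucose transporter of the hepatocyte membrane, read 87.5, 105 and 45.9 TPM in Alb-Cre- livers and 118, 147 and 78.2 TPM in Alb-Cre+ livers, higher in each pair by 0.43, 0.48 and 0.77 on the log2 scale. For Slc2a2 limma gave an unadjusted p of 0.157 from genotype alone and 0.00286 with the replicate block, where the adjusted p was 0.513. Ppp1r3g, another glycogen-targeting subunit, was at 4.10, 7.10 and 3.99 TPM in controls and 2.60, 0.651 and 1.29 TPM in Alb-Cre+ mice, without overlap and with a log2 difference of -1.82 (SE 0.49). Gpt2, the mitochondrial alanine aminotransferase that feeds pyruvate, was at 354, 362 and 354 TPM without Cre and 297, 274 and 309.8 TPM with Cre, and Shpk, a sedoheptulose kinase of the pentose phosphate pathway, at 21.2, 19.4 and 21.04 TPM in the 3 Alb-Cre- mice and 25.4, 25.6 and 24.3 TPM in the 3 Alb-Cre+ mice, both without overlap.

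Slc2a1, a glucose transporter that is low in hepatocytes, had values of 6.66, 5.93 and 6.52 TPM in Alb-Cre- livers and 5.57, 5.45 and 3.29 TPM in Alb-Cre+ livers, which did not overlap either. The adjusted p of Ppp1r3g, Gpt2, Shpk and Slc2a1 with the block was 0.806, 0.964, 0.999 and 0.999. The other further genes with an unadjusted p below 0.05 in the blocked fit were Creb3l3, Mlxipl and Nhlrc1, which were higher, and Mpc1 and Pdp1, which were lower. Pdk4, the kinase of pyruvate dehydrogenase that rises in fasting, varied from 3.04 to 54.4 TPM, and its log2 difference of 0.73 had a 95% interval of -1.77 to 3.22, or -0.25 to 1.71 with the block.

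Some members stood apart in both females, at shares that depended on the scaling. Both females were above all 4 males for 10 of the 39 members, a smaller share than the 36.6% of all genes tested. They were below all males for 3 of the 39, near the 5% of all genes. Median-of-ratios scaling gave 8 above, beside 19.4%, and 14 below, beside 19.7%. The 10 were Pck2, Hk1, Hk2, Hk3, Pfkfb2, Aldoa, Tpi1, G6pdx, Rpia and Gys2, and the 3 were G6pc, Pck1 and Pdk2. After that scaling Tpi1 and Gys2 left the first group. Slc37a4, Fbp1, Pcx, Pfkm, Pfkfb1, Pdhb, Dlat, Taldo1, Rpe, Pygl and Ppp1r3b joined the second. Hk3, a hexokinase of myeloid cells, stood at 0.740, 1.88 and 0.598 TPM in controls and 0.722, 2.43 and 0.361 TPM in Alb-Cre+ mice, and Hk1 at 1.07, 1.84 and 0.820 TPM without Cre and 0.950, 2.43 and 0.502 TPM with Cre. With 1 female per genotype, sex cannot be told apart from other features of replicate 2.

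**Figure D4:**
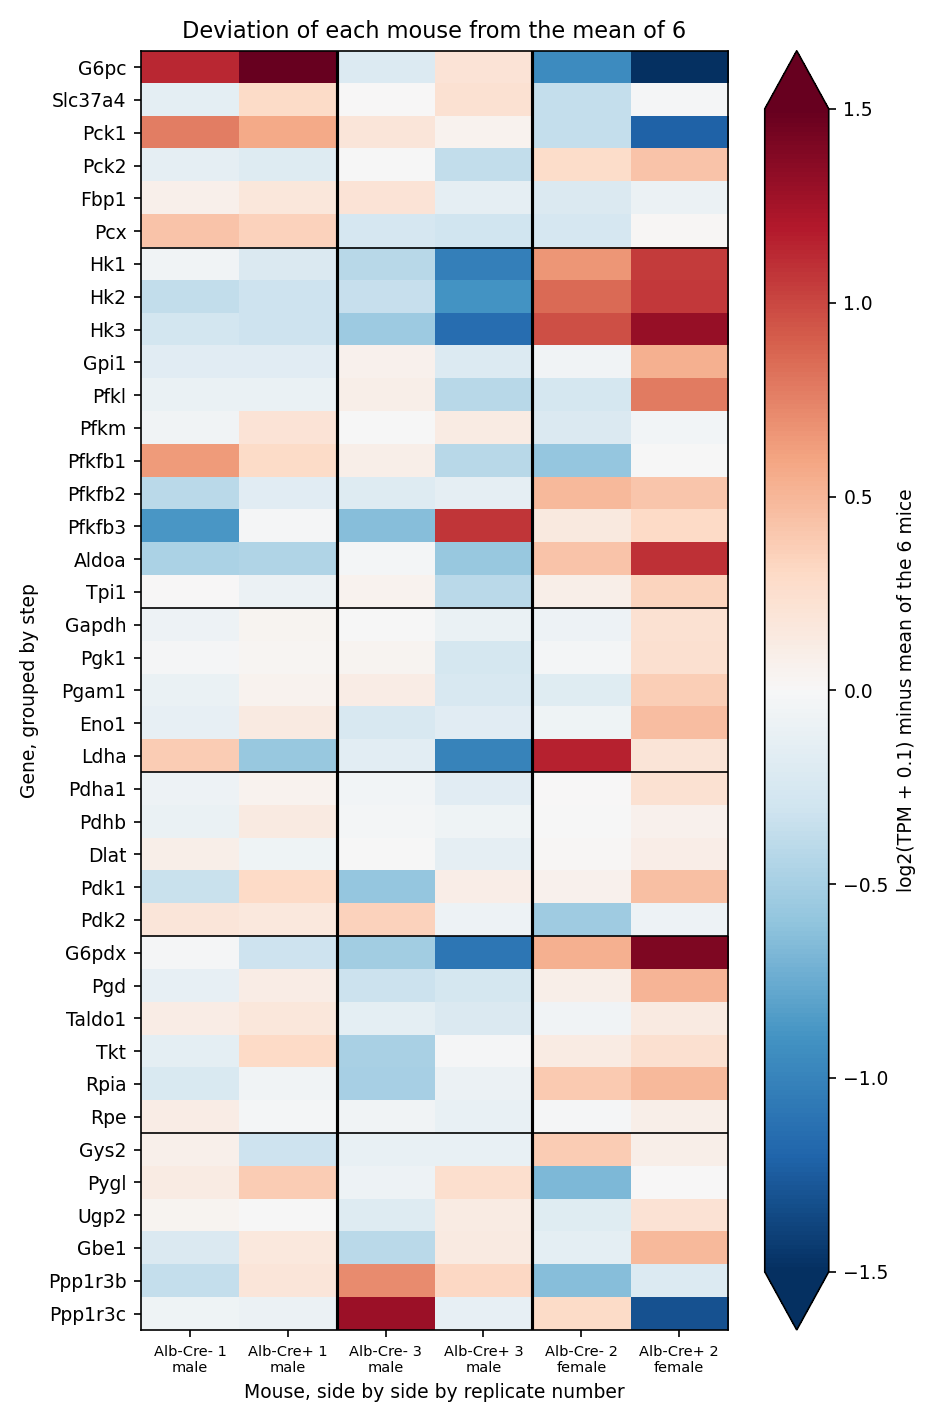
Deviation of each mouse from the mean of the 6 mice in log2(TPM + 0.1) for each gene, with same-numbered mice side by side and the females on the right. G6pc and Pck1 are low and Hk1, Hk2, Hk3 and G6pdx high in both females, and Ldha is lower in the Alb-Cre+ mouse of each pair.

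Markers of some other liver cells were also higher in both females. The 6 Kupffer cell markers summed to 176, 424 and 158 TPM in the Alb-Cre- mice and 181, 461 and 116 TPM in the Alb-Cre+ mice, and all 6 were higher in both females than in every male, beside the 36.6% of all genes. The 5 neutrophil markers summed to 35.5, 147.5 and 24.4 and 43.3, 302 and 54.8 TPM, again with all 5 higher in both females. Between the genotypes 3 of the 5 had an unadjusted p below 0.05 with the block, all higher, beside 2.28% of all genes. From genotype alone 0 of the 5 had one, and 0 were without overlap between the genotypes. The 6 endothelial markers summed to 106 to 166 and 76.96 to 188 TPM, with 5 of the 6 higher in both females, and the 6 stellate cell markers to 89.5 to 249 and 118 to 237 TPM, with 4 of the 6. Of the lymphocyte markers, which summed to 1.58 to 5.00 TPM over all mice, 2 of 6 were higher in both females, and so were 2 of the 8 hepatocyte markers. Other lists did not share the pattern, with 0 of 5 cholangiocyte markers (15.02 to 59.2 TPM over all mice) and 0 of 5 erythroid markers (103 to 408 TPM) higher in both females. Markers of muscle and fat (6 genes) summed to less than 1 TPM in every mouse. In bulk tissue, more cells of a type and more RNA per cell cannot be told apart, and the part of other cell types in the values of Hk1, Hk2, Hk3, Aldoa and G6pdx was not tested.

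Zonal markers are given because gluconeogenesis is strongest around the portal vein and glycolysis around the central vein. The 6 periportal genes summed to 5813, 3829 and 8117 TPM in Alb-Cre- and 6744, 4897 and 5037 TPM in Alb-Cre+ mice, and the 6 pericentral genes to 1661, 1493 and 927 and 1364, 1545 and 1150 TPM. The genotypes overlapped in both sums, and 0 of the 6 genes of either list had an unadjusted p below 0.05 in either fit.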

How the data were processed

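Liver RNA of 3 mice per genotype was sequenced. The authors deposited TPM per mouse and transcript (GRCm38), scaled to a total of 1000000. Salmon is named on the table, although STAR with RSEM is what the methods give. A table of the authors' DESeq2 comparison (fold changes and p-values) was not used. Since the table has no counts, depth and counting error could not be given.

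Transcript TPM were added up by symbol (163 transcript rows without a symbol, 0.0515% to 0.0887% of TPM, were left out). On log2(TPM + 0.1), the genes whose mean reached 0.1 TPM were fitted by limma 3.58.1 under R 4.3.3 (genotype only, variance prior with a trend, Benjamini-Hochberg adjustment, threshold 0.01), which was tested on simulated data. A fold change on this scale understates the change of low genes. Deviations from the group means correlated across genes at 0.367, 0.588 and 0.37 between same-numbered mice of the 2 genotypes, so the replicate number was also fitted as a block. Between males of unlike number these correlations were 0.091 and 0.171, and between a male and a female they ran from -0.444 to -0.351. The labels give separate mice with replicate numbers. They state no pairing by number, and which mice share a litter is not stated. Members and gene lists were chosen with earlier results of these data known. Values per mouse are given for members with an unadjusted p below 0.05 or without overlap and for the rate-setting genes G6pc, Pck1, Fbp1, Pcx, Pfkl, Gys2, Pygl, G6pdx and Ppp1r3c, and further pathway genes are named where their p was below 0.05 or, at a mean of 1 TPM or more, their genotypes did not overlap. Other genes named or given per mouse (Gapdh, Eno1, Hk1, Hk3, Ppp1r3b, Slc2a2, Pdk4, Cpt1a and those past the threshold in the blocked fit alone) were chosen after their values were seen. Gene positions and transcript types are from GENCODE M21, whose IDs matched 115637 of 116748 transcripts. Alternatives were sex as a covariate, a pseudocount of 1 TPM, no minimum, a minimum of 1 TPM, median-of-ratios scaling, no trend, an adjusted p of 0.05 and leaving out each mouse, and, chosen after seeing the data, the block with that scaling, the overlap counts under that scaling and without each mouse, and the pair directions and sex split under that scaling.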

Additional observations from a re-analysis of the deposited data

Results flagged for a closer look

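For 13 of the 39 genes the female pair differed between the genotypes in the opposite direction to both male pairs. This was about the share over all genes, where 4675 (32.9% of those tested) did, so it does not set the list apart. After median-of-ratios scaling 11 genes did, beside 29% of all genes, and 8 of them were among the 13, while Pfkl, Pcx, Pck2, Rpe and Dlat no longer were. The difference between the sexes was not tested, since there was 1 female pair. Alb-Cre+ was lower in the female pair and higher in both male pairs for G6pc, with a log2 difference of -0.87 in females against 0.49 and 0.41 in males, and for Pfkfb2, with -0.065 against 0.23 and 0.065. It was higher in the female pair and lower in both male pairs for G6pdx (0.87 in females, against -0.30 and -0.56 in males), Pfkfb1 (0.57, against -0.35 and -0.51) and Pdk2 (0.45, against -0.031 and -0.42). Pfkl was higher in the female pair (1.03) and lower in male pair 3 (-0.51), while male pair 1 was all but equal, at 8.328 TPM in Alb-Cre- and 8.326 TPM in Alb-Cre+. Smaller log2 differences in the same sense were found in the female pair for Hk1 (0.38), Hk3 (0.35), Pcx (0.28), Tpi1 (0.25), Pck2 (0.15), Rpe (0.10) and Dlat (0.084).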

How the results depend on the processing

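The 8 members with an unadjusted p below 0.05 in either fit or without overlap kept the direction of their mean difference under every alternative, and none passed an adjusted p of 0.01 in any, so the block changed no call at that threshold. The block, sex as a covariate, the trend setting and the minimums cannot change a mean difference in this balanced design. Only the pseudocount, the scaling and leaving out a mouse could. The 8 were also picked from these same data, so a kept direction is no further support for them. Of the other 31 members, of which all but Pck1 and Eno1 lay within 0.25 of 0, 22 changed sign in at least 1 alternative. The count of members with an unadjusted p below 0.05 moved from 3 (1.76% of all genes) to 8 with the replicate block (4.69%), 7 with sex as a covariate (3.74%) and 8 with the block and median-of-ratios scaling (5.50%), the last chosen after seeing the data, where Eno1 took the place of Tkt, and was 2 to 4 elsewhere. Leaving out a mouse gave 3 to 4 (1.29% to 3.61% of all genes), and 5 to 11 members without overlap in place of 3, where the share over all genes moved from 4.9% to between 9.58% and 20.3%. Leaving out a mouse gave 0 to 1 genes past an adjusted p of 0.01, the 1 without Alb-Cre+ mouse 1. Without 1 mouse the log2 difference of Ldha ran from -1.24 to -0.56 and that of Ppp1r3c from -1.29 to -0.61. TPM are shares of a fixed total, 3 mice per genotype limit the precision, and the cause of these shifts was not tested.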
